A study of Mus musculus with 6 samples.

Results

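Inflammasomes are the protein platforms on which a cell activates inflammatory caspases, and 10 of their mouse genes were followed here: the sensors Nlrp3, Nlrp6, Nlrc4, Naip1, Naip6, Aim2 and Mefv, the adaptor Pycard, and the caspases Casp1 and Casp4. They were taken by gene symbol and not by a cut on the measured levels, though with earlier results of these data known. All 10 were found among 19949 genes and unnamed entries with counts, and all 10 passed the filter on low counts. The tissue was colon of STAT6-/- mice, which carry a disrupted Stat6 gene, and of wild-type (WT) mice, both labelled BALB/c and 6 to 8 weeks old. STAT6 is the transcription factor that carries signals of interleukin-4 and interleukin-13. Both genotypes drank 3% dextran sulfate sodium (DSS), which injures the colonic epithelium, for 3 days. Untreated colons are not analysed here. Each genotype had 3 libraries of total RNA from proximal bowel that had been scraped on its luminal side. The Stat6 allele, the sex of the mice and whether the replicates of a genotype were separate animals are not stated, so p-values measure the spread between these libraries, which may in part be technical.

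A sensor protein recognises a microbial product or a disturbance of the cell and, directly or through the adaptor ASC, gathers caspase-1. Caspase-1 cleaves gasdermin D, whose fragment forms pores that kill the cell, and matures interleukin-1beta and interleukin-18. Caspase-11, the product of mouse Casp4, binds bacterial lipopolysaccharide itself and cleaves gasdermin D without a separate sensor. In the gut, epithelial cells as well as macrophages express several of these genes, and epithelial interleukin-18 is a well-known product of the pathway.

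The libraries held 19555450, 19224779 and 19522272 expected counts in STAT6-/- colons, against 17137595, 17433876 and 17122315 in WT colons. Stat6 (chromosome 10, 127642955 to 127660987, mm10) was checked first. It had 49.9, 38.5 and 53.2 CPM (counts per 1000000, with library sizes scaled by TMM factors) in STAT6-/- replicates 1 to 3, against 91.7, 104 and 88.8 CPM in WT replicates 1 to 3. The fall was 1.01 on the log2 scale (SE 0.17; adjusted p = 0.0134 by edgeR's quasi-likelihood test with the Benjamini-Hochberg method), and the groups did not overlap. A two-sided exact test over all permutations of the libraries had p = 0.1, the lowest value this number of libraries allows. Without WT replicate 2 or 3 the adjusted p was 0.0725 and 0.0721. Xist and 4 Y-linked genes separated the groups completely, with a male profile in all 3 STAT6-/- libraries and a female profile in all 3 WT libraries, so sex and genotype cannot be told apart in any result here. Along the first principal component, which carried 61.4% of the variance, STAT6-/- replicate 2 (-21.7) lay nearer to the WT libraries (47.8 to 67.3) than STAT6-/- replicates 1 (-85.6) and 3 (-68.7) did. Summed markers of smooth muscle were at 2059 to 4744 CPM in STAT6-/- colons and 8102 to 9919 CPM in WT colons, and summed epithelial markers at 16440 to 27247 CPM and 15679 to 20464 CPM in the same order. Epithelial markers were thus abundant in every library. In bulk tissue, fewer cells of a type and less RNA per cell cannot be told apart.

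Of the 10 inflammasome genes, Mefv and Casp4 rose in STAT6-/- colons, 0 fell, and 8 did not pass the test. The called share of 20% stands beside 22.9% of 15066 tested genes called in either direction, so it is near the background of these libraries. By direction, 11.4% of all genes rose and 11.5% fell. At an unadjusted edgeR p below 0.05, 4 of the 10 genes passed (Nlrp3, Mefv, Casp1 and Casp4), against 40.3% of all genes. In 3 of the 10 (Mefv, Casp1 and Casp4) the groups did not overlap, against 46.5% of all genes. The median log2 fold change of the 10 genes was 0.12, with 5 positive and 5 negative values, beside a median of 0.01 over all tested genes. DESeq2 called 4 of the 10, with Mefv, Casp4 and Nlrp3 higher and Casp1 lower, where it called 34% of all genes. Without STAT6-/- replicate 2, edgeR called 3 of the 10 (Mefv, Casp4 and Nlrp3, all higher) and 33.9% of all genes. It called 0 of the 10 in 4 other fits. These lacked STAT6-/- replicate 1 (11.7% of all genes called), WT replicate 1 (9.12%), WT replicate 2 (0.2%) or WT replicate 3 (0.117%), and 2 or 3 of the 10 had an unadjusted p below 0.05 in each of them, where 27.8% to 34.5% of all genes did.

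**Figure D1:**
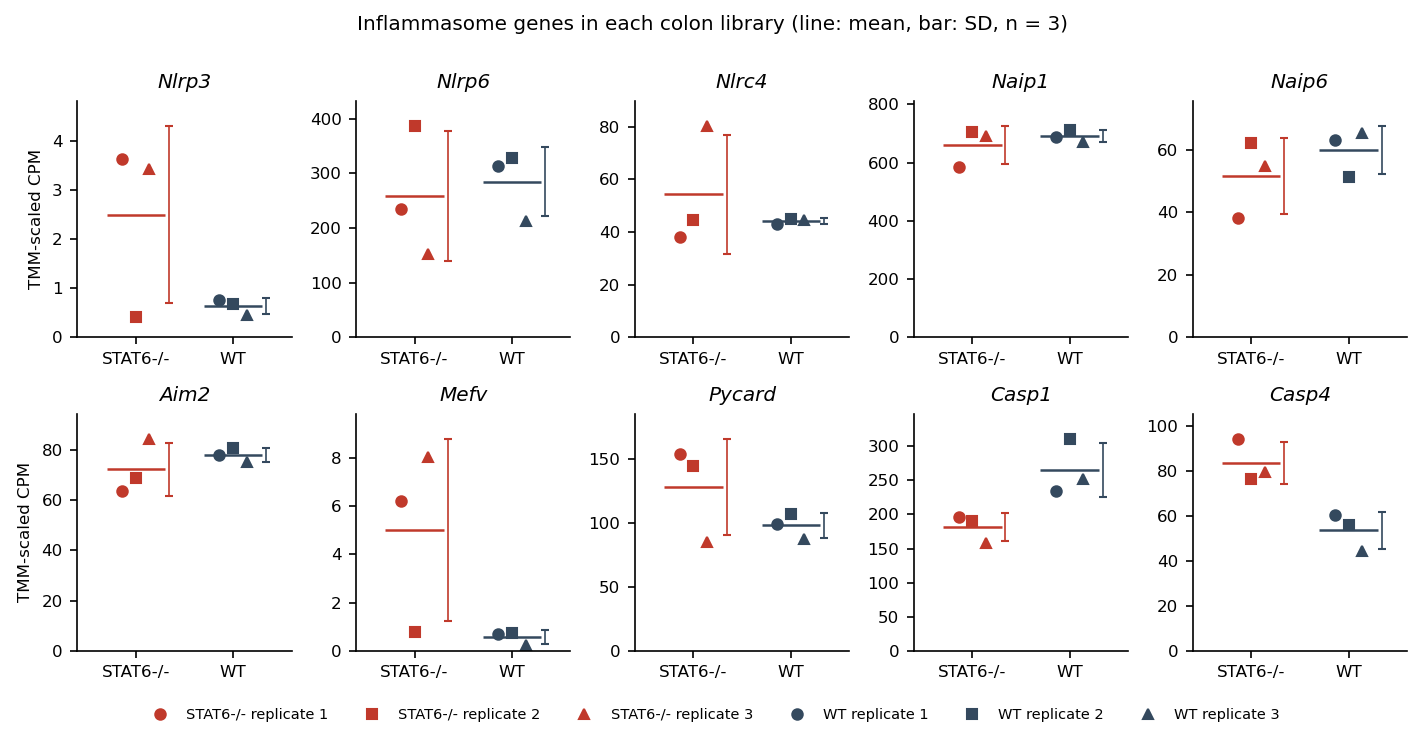
TMM-scaled CPM of the 10 inflammasome genes in each library, with 1 panel and 1 linear axis per gene; points are libraries, lines are means and bars are SD (n = 3 per genotype, STAT6-/- on the left). Casp4 lies higher and Casp1 lower in all 3 STAT6-/- libraries than in any WT library, and Nlrp3 and Mefv spread widely among the STAT6-/- libraries.

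**Figure D2:**
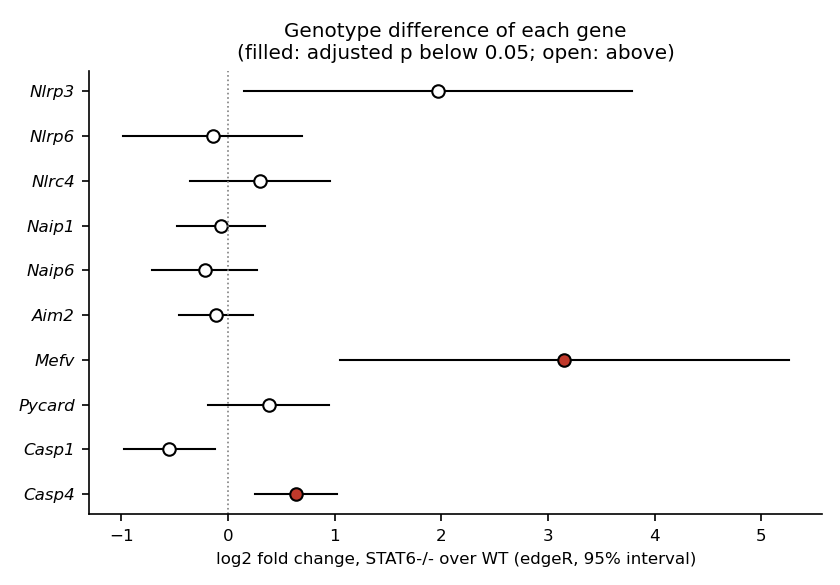
Log2 fold change of each gene in STAT6-/- over WT colons from edgeR, with its 95% confidence interval on the horizontal axis and genes down the page. Filled points, Mefv at 3.15 and Casp4 at 0.64, have an adjusted p below 0.05, and the intervals of Nlrp3 and Mefv are the widest of the 10.

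Levels can be compared between genes only per transcript length, as FPKM (fragments per kilobase of transcript, scaled to mapped fragments). Casp1 had 122 ± 20.5 FPKM in STAT6-/- colons and 169.6 ± 18.1 FPKM in WT colons (mean ± SD, n = 3 each, as for all FPKM here), and Naip1 had 124 ± 5.46 and 124 ± 2.96 FPKM in the same order. These were the most abundant of the 10. A middle group held Pycard with 61.6 ± 20.9 FPKM in STAT6-/- colons and 44.7 ± 2.25 FPKM in WT colons, Casp4 with 59.7 ± 10.7 and 36.4 ± 4.77 FPKM, and Nlrp6 with 58.6 ± 26.5 and 61.6 ± 11.4 FPKM. Aim2 followed with 28.8 ± 2.86 FPKM in STAT6-/- colons and 29.9 ± 0.541 FPKM in WT colons, Nlrc4 with 14.1 ± 5.20 and 11.1 ± 0.573 FPKM, and Naip6 with 7.68 ± 1.48 and 8.67 ± 1.53 FPKM. Mefv had 1.6 ± 1.18 FPKM in STAT6-/- colons and 0.17 ± 0.0866 FPKM in WT colons, and Nlrp3 had 0.633 ± 0.469 and 0.15 ± 0.04 FPKM, the lowest of the 10. Among neighbours in this order, the ranges of Naip1 and Casp1, of Pycard and Casp4, of Casp4 and Nlrp6, and of Mefv and Nlrp3 overlapped within STAT6-/- colons. In WT colons, where the order was Casp1, Naip1, Nlrp6, Pycard and Casp4 at the top, only Mefv and Nlrp3 overlapped as neighbours.

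Casp4 rose and Casp1 did not pass the test, and both separated the genotypes without overlap. The genes lie side by side on chromosome 9 in mm10, Casp1 at 5298517 to 5307281 and Casp4 at 5308849 to 5336791, with 1567 bases between them. Casp4 had 94.2, 76.6 and 79.6 CPM in STAT6-/- replicates 1 to 3, against 60.4, 55.9 and 44.6 CPM in WT replicates 1 to 3. Every STAT6-/- library lay above every WT library, and the spread within each group was small. The mean was 83.5 ± 9.40 CPM in STAT6-/- colons and 53.6 ± 8.14 CPM in WT colons (SD, n = 3 each), a 1.56-fold rise (log2 0.64, SE 0.16, 95% interval 0.25 to 1.03; edgeR adjusted p = 0.0343). The call was lost without STAT6-/- replicate 1 (adjusted p = 0.0702) and likewise when WT replicate 1, 2 or 3 was removed (adjusted p = 0.0665, 0.117 and 0.129), while the log2 change stayed between 0.51 and 0.73 over the 6 fits that each left out 1 library.

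Casp1, the protease that matures the cytokines, went the other way in its values. It had 197, 190 and 158 CPM in STAT6-/- colons, against 234, 310 and 253 CPM in WT colons. The groups did not overlap, with means of 182 ± 20.6 CPM in STAT6-/- colons and 266 ± 39.6 CPM in WT colons (SD, n = 3 each). The log2 fold change of -0.55 (SE 0.18, 95% interval -0.98 to -0.12) had an unadjusted edgeR p of 0.0186 and missed the threshold after adjustment (adjusted p = 0.0663). DESeq2 called it lower (adjusted p = 0.0228), and no other alternative did. Summed markers of colonocytes, the absorptive cells of the colon, were at 4291, 5439 and 3496 CPM in STAT6-/- replicates 1 to 3, against 7179, 8030 and 5692 CPM in WT replicates 1 to 3, with 1 of 5 markers lower and 1 higher. Single markers differed in direction. Slc26a3 and Car1 were lower in every STAT6-/- library than in any WT library, Krt20 was higher in every one, and Car4 and Aqp8 overlapped. The part of colonocytes in the values of Casp1 was not tested.

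Per length, Casp4 stood at 0.509, 0.429 and 0.534 times the FPKM of Casp1 in STAT6-/- replicates 1 to 3, against 0.274, 0.192 and 0.188 times in WT replicates 1 to 3. Casp1 thus stayed above Casp4 in every library, by a smaller margin in each STAT6-/- library than in any WT library. This ratio was chosen after the levels had been seen and is given without a test. All expected counts of both genes were whole numbers, and neither transcript shares a 50-base stretch with another gene's transcripts in GENCODE M21, and no sign of reads divided between the neighbours was found.

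**Figure D3:**
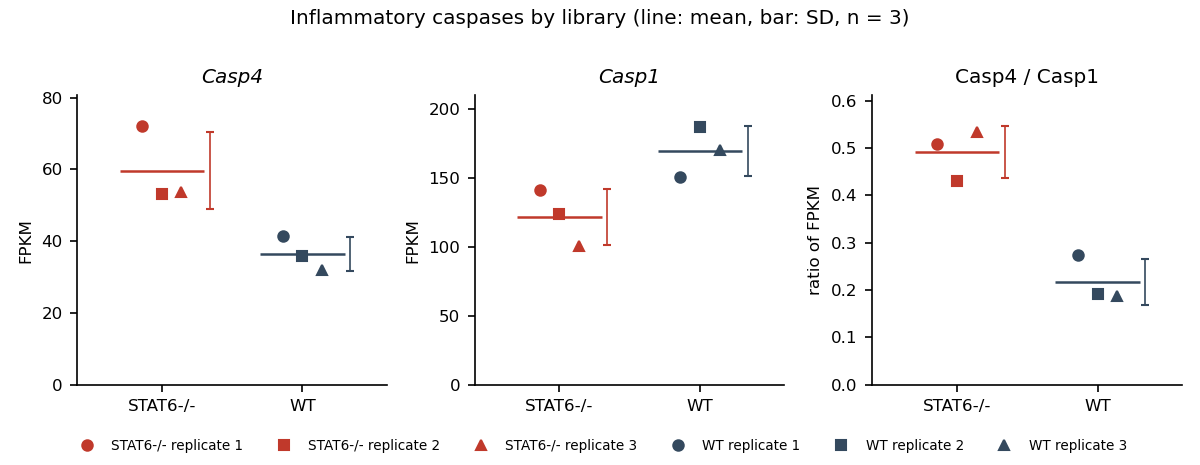
Levels of Casp4 and Casp1 per library in FPKM, and the ratio of Casp4 to Casp1 in FPKM; points are libraries, lines are means and bars are SD (n = 3 per genotype, STAT6-/- on the left). The ratio lies between 0.429 and 0.534 in STAT6-/- libraries and between 0.188 and 0.274 in WT libraries.

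The stretches just before the start sites of these neighbours are shown because the genes differ there in 1 of the 4 motifs searched. RefSeq sequences of GRCm38.p6, the assembly of mm10, cover 250 bases before and 50 after each start site, and all 10 genes matched, with 12 such windows. The reference is the C57BL/6J strain and the mice were BALB/c, so single bases may differ. Capitals mark a pair of overlapping matches to the NF-kB consensus, 93 and 92 bases before the Casp4 start site at 5308849. The 250 bases upstream of Casp4 (chr9:5308599-5308848, plus strand) and of Casp1 (chr9:5298267-5298516, plus strand) read 5′ to 3′:
Casp4: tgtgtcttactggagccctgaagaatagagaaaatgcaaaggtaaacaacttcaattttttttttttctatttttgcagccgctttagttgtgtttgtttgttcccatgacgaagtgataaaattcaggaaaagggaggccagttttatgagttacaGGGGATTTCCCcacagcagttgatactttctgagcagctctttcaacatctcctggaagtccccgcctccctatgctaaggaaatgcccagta
Casp1: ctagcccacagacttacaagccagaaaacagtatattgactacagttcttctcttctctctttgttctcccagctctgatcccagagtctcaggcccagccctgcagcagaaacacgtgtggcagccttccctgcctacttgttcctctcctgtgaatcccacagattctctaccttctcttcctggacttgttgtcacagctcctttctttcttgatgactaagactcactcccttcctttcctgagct

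The NF-kB consensus, searched on both strands, occurred in 4.51% of 32851 windows of the same 300 bases genome-wide. Here it occurred in 3 of the 12 windows. These belong to 2 of the 10 genes, Casp4 and Nlrp3, and both Casp4 windows hold the same stretch of the consensus. In Nlrp3 it lay 186 bases before the start site at 59541569 of chromosome 11, on the minus strand (chr11:59541375-59541400, printed from the plus strand), and read cttctgcaGGGAACCCCCgggaattc. A STAT6-type element, TTCNNNNGAA, is found in 6.95% of all windows and in 1 of the 12 windows here. Of the 10 genes only Nlrp3 held one, 122 bases before its other start site at 59542686 (chr11:59542556-59542581), reading cttcctccTTCCTTTGAAaataaaag. The general STAT element TTCNNNGAA (8.3% of all windows) and the interferon response element GAAANNGAAA (3.44%) were in the windows of 0 of the 10 genes, which says only that these letters are absent from these windows. A match is a description of letters, and binding was not measured.

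Mefv and Nlrp3 were the scarce sensors and the ones with the largest log2 fold changes. Mefv (chromosome 16, 3706974 to 3718211) encodes pyrin, the protein altered in human familial Mediterranean fever. It had 6.21, 0.783 and 8.04 CPM in STAT6-/- replicates 1 to 3, against 0.710, 0.745 and 0.227 CPM in WT replicates 1 to 3. STAT6-/- replicates 1 and 3 were far above the WT libraries, and STAT6-/- replicate 2 lay just above the highest of them. The underlying counts were 133, 15 and 152 in STAT6-/- colons, against 12, 12 and 4 in WT colons. The fitted rise was 8.89-fold with a 95% interval of 2.07 to 38.2 (log2 3.15, SE 0.89; edgeR adjusted p = 0.0448), from means of 5.01 ± 3.77 CPM in STAT6-/- colons and 0.560 ± 0.289 CPM in WT colons (SD, n = 3 each). Leaving out any 1 library other than STAT6-/- replicate 2 ended this call, with adjusted p from 0.0898 to 0.154, and without STAT6-/- replicate 2 the edgeR adjusted p was 0.00487 (log2 3.69).

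The 3 listed Mefv transcripts were not the same in each library. NM_001161791 had expected counts of 77.95, 15 and 23.89 in STAT6-/- replicates 1 to 3, against 12, 12 and 0 in WT replicates 1 to 3. NM_001161790 had 55.05, 0 and 89.5 in STAT6-/- colons, against 0, 0 and 4 in WT colons. NM_019453 was listed in STAT6-/- replicate 3 alone, with 38.62. At these counts the estimated split between transcripts carries no comparison, and the sum over the gene is the value to read.

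Nlrp3 (chromosome 11, 59541569 to 59566955), the sensor of many kinds of cell damage, had 3.64, 0.418 and 3.44 CPM in STAT6-/- colons, against 0.769, 0.682 and 0.454 CPM in WT colons. The underlying counts were 78, 8 and 65 in STAT6-/- replicates 1 to 3, against 13, 11 and 8 in WT replicates 1 to 3. STAT6-/- replicates 1 and 3 lay above the WT libraries. STAT6-/- replicate 2 had the same count as WT replicate 3 and lay below it in CPM only through library scaling. The 8.72-fold range in CPM within STAT6-/- colons thus rests on few counts. The log2 fold change was 1.97 (SE 0.77, 95% interval 0.15 to 3.79) and did not pass (edgeR adjusted p = 0.103). Without STAT6-/- replicate 2 it was 2.50 and passed (adjusted p = 0.00597).

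Summed markers of each leukocyte class too were lowest, among STAT6-/- libraries, in STAT6-/- replicate 2. This was not particular to leukocytes. Fibroblast markers summed to 2119, 877 and 3505 CPM in STAT6-/- replicates 1 to 3, against 2091 to 5812 CPM in WT colons. Endothelial markers summed to 75.1, 31.7 and 87.6 CPM, against 21.6 to 35.5 CPM. Epithelial, colonocyte, goblet-cell, smooth-muscle and adipocyte sums had another STAT6-/- library lowest. The sum of 3 pan-leukocyte markers was 571, 99.9 and 330 CPM in STAT6-/- replicates 1 to 3, against 81.5, 81.1 and 74.3 CPM in WT replicates 1 to 3, and 2 of the 3 rose. The sum of 8 macrophage and monocyte markers was 1292, 452 and 967 CPM in STAT6-/- colons, against 341, 518 and 516 CPM in WT colons, with 1 of 8 higher. Cd14, the largest part of this sum in STAT6-/- replicate 2, had 287, 236 and 271 CPM, against 73.0, 67.4 and 42.4 CPM. In STAT6-/- replicate 2 the other markers of this list each lay within or below the WT range. Lyz2, for example, had 740, 143 and 387 CPM in STAT6-/- colons, against 180, 354 and 363 CPM in WT colons. Ptprc (CD45), which all leukocytes carry, had 183, 19.8 and 95.5 CPM in STAT6-/- colons, against 19.3, 20.2 and 20.1 CPM in WT colons. B-cell markers summed to 22.4 to 255 CPM in STAT6-/- colons and 26.6 to 40.6 CPM in WT colons, with 0 of 4 called, and T-cell markers to 8.46 to 44.5 CPM and 11.4 to 12.5 CPM in the same order, with 2 of 4 higher. The neutrophil sum was 457 to 1397 CPM in STAT6-/- colons and 280 to 395 CPM in WT colons, with 1 of 6 higher. Most of that sum was Ly6g, with 581, 437 and 1305 CPM in STAT6-/- colons, against 355, 359 and 267 CPM in WT colons. The other 5 neutrophil markers summed to 19.9 to 91.3 CPM in STAT6-/- colons and 11.3 to 40.2 CPM in WT colons. None of these leukocyte markers with counts was at 0 in any library, Trac having no counts. The part of leukocytes in the values of Mefv and Nlrp3 was not tested.

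**Figure D4:**
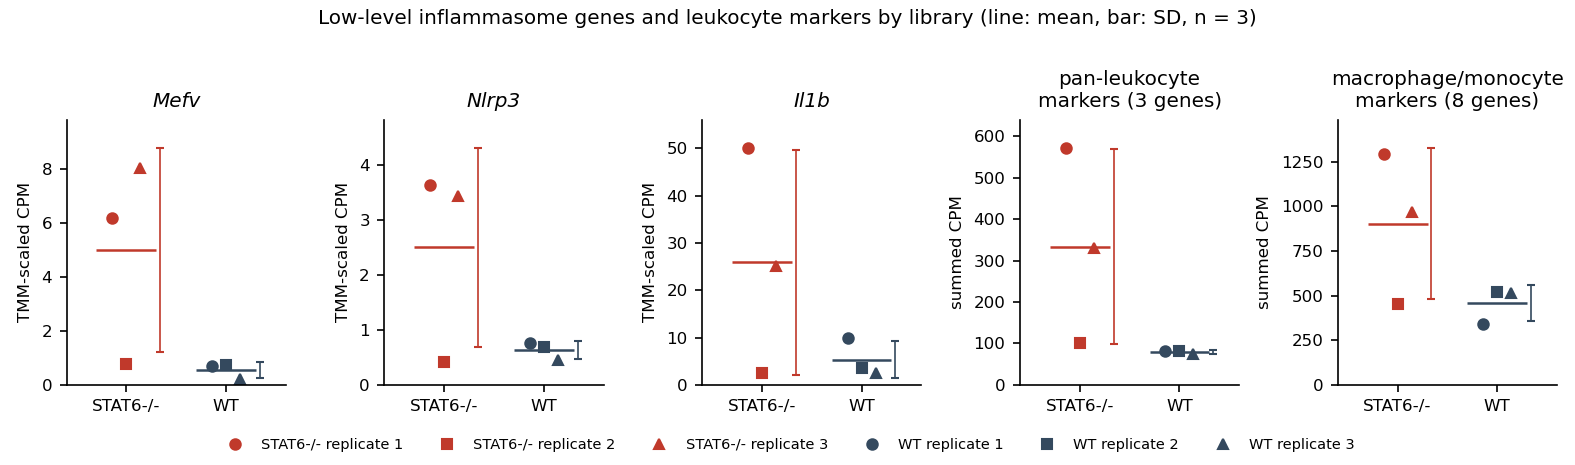
Mefv, Nlrp3 and Il1b per library beside the summed levels of 3 pan-leukocyte and 8 macrophage and monocyte markers, each on its own linear axis of TMM-scaled CPM; points are libraries, lines are means and bars are SD (n = 3, STAT6-/- on the left). STAT6-/- replicate 2, the square, is the lowest STAT6-/- library in all 5 panels, and Cd14 is the largest part of its macrophage and monocyte sum.

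The sensors of bacterial secretion systems and flagellin did not pass the test between the genotypes, which does not show that their levels were equal. NAIP proteins bind the bacterial ligand, needle protein for NAIP1 and flagellin for NAIP6, and then recruit NLRC4. Naip1 (chromosome 13, 100407770 to 100452864) had 587, 705 and 690 CPM in STAT6-/- colons, against 689, 713 and 670 CPM in WT colons. The log2 fold change was -0.06, with a 95% interval of -0.47 to 0.35 (edgeR adjusted p = 0.804). Naip6 (chromosome 13, 100281121 to 100316616) had 38.1, 62.1 and 54.8 CPM in STAT6-/- colons, against 63.3, 51.3 and 65.5 CPM in WT colons. These groups overlapped as well (log2 -0.22, 95% interval -0.71 to 0.27; edgeR adjusted p = 0.462).

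Naip transcripts resemble each other, and RSEM split shared reads between them. Of the 50-base stretches of Naip1, 33.1% also occur in transcripts of another gene in GENCODE M21, and of those of Naip6, 21.7%. The gene that shares the most of them with Naip1 is Naip3 (23.6%), which is not in the sum below. None of the 6 expected counts of either gene was a whole number, so single Naip values are uncertain. The sum over Naip1, Naip2, Naip5 and Naip6, which is not touched by how reads are divided among these 4, was 809, 1034 and 1039 CPM in STAT6-/- colons, against 977, 1006 and 994 CPM in WT colons (log2 -0.05, 95% interval -0.50 to 0.40; edgeR adjusted p = 0.874). Naip1 made up 72.1%, 67.9% and 65.7% of the summed FPKM of the 4 genes in STAT6-/- colons, against 70.3%, 70.3% and 67.0% in WT colons. It was the leading Naip gene in every library, and Naip6 gave 3.74% to 4.77% in STAT6-/- colons and 4.04% to 5.23% in WT colons.

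Nlrc4 (chromosome 17, 74426255 to 74459144) had 38.0, 44.6 and 80.2 CPM in STAT6-/- colons, against 43.1, 45.0 and 44.5 CPM in WT colons. STAT6-/- replicate 3 stood apart from the other 5 libraries, and the log2 fold change of 0.30 (SE 0.28, 95% interval -0.36 to 0.95; edgeR adjusted p = 0.451) became -0.05 without it. The 4 Naip genes together exceeded Nlrc4 in FPKM 15.3, 16.6 and 9.35 times in STAT6-/- replicates 1 to 3, against 16.3, 16.1 and 16.1 times in WT replicates 1 to 3. The low ratio was that of STAT6-/- replicate 3.

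Nlrp6 (chromosome 7, 140920902 to 140929192), a sensor known from the intestinal epithelium and its goblet cells, had 235, 386 and 152 CPM in STAT6-/- colons, against 314, 329 and 212 CPM in WT colons. It was the sensor with the second highest level per length in both genotypes and varied more among the STAT6-/- libraries than among the WT libraries (258 ± 119 and 285 ± 63.6 CPM, SD, n = 3 each). The log2 fold change of -0.14 (SE 0.36, 95% interval -0.99 to 0.70; edgeR adjusted p = 0.786) became 0.17 without STAT6-/- replicate 3. Summed goblet-cell markers were at 7926, 19914 and 7419 CPM in STAT6-/- replicates 1 to 3, against 10823, 11690.5 and 10579 CPM in WT replicates 1 to 3. STAT6-/- replicate 2 was the highest library and STAT6-/- replicate 3 the lowest for both the sum and Nlrp6. Single goblet-cell markers did not share this order, and 0 of 5 were called. In STAT6-/- replicate 3, Zg16 was the lowest of all libraries, while Muc2, Fcgbp and Spdef were above every WT library. Tff3 was lower in every STAT6-/- library than in any WT library. The part of goblet cells was not tested.

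Aim2 (chromosome 1, 173349547 to 173466040), the sensor of double-stranded DNA in the cytosol, had 63.7, 69.0 and 84.4 CPM in STAT6-/- colons, against 78.1, 81.0 and 75.2 CPM in WT colons. The groups overlapped, with means of 72.3 ± 10.8 CPM in STAT6-/- colons and 78.1 ± 2.91 CPM in WT colons (log2 -0.11, 95% interval -0.46 to 0.24; edgeR adjusted p = 0.599). The gene model overlaps Cadm3, and the strand of the reads is not given in the sources used here.

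Pycard (chromosome 7, 127991373 to 127993867) encodes ASC, the adaptor that links pyrin-domain sensors to caspase-1. It had 154, 145 and 84.8 CPM in STAT6-/- colons, against 99.5, 107 and 87.8 CPM in WT colons. STAT6-/- replicates 1 and 2 were above all WT libraries and STAT6-/- replicate 3 below them. The log2 fold change was 0.38 (SE 0.24, 95% interval -0.19 to 0.95; edgeR adjusted p = 0.273), and without STAT6-/- replicate 3 it was 0.65 and passed (adjusted p = 0.0285).

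The members did not order the STAT6-/- libraries in a single way. STAT6-/- replicate 1 was the highest of its genotype for Nlrp3, Pycard, Casp1 and Casp4 and the lowest for Nlrc4, Naip1, Naip6 and Aim2. STAT6-/- replicate 2 was the highest for Nlrp6, Naip1 and Naip6 and the lowest for Nlrp3, Mefv and Casp4. STAT6-/- replicate 3 was the highest for Nlrc4, Aim2 and Mefv and the lowest for Nlrp6, Pycard and Casp1.

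Other genes of the pathway were read from 7 lists, of which 62 genes were tested, 15 rose and 2 fell. The all-gene shares to read each list against are 11.4% higher and 11.5% lower by edgeR, 40.3% at an unadjusted p below 0.05, 34% in either direction by DESeq2, and 33.9% in either direction without STAT6-/- replicate 2. The list counts changed when single libraries were left out. They were 11 and 2 when STAT6-/- replicate 1 was left out, 38 and 3 when STAT6-/- replicate 2 was left out, and 14 and 5 when STAT6-/- replicate 3 was. They were 9 and 1, 1 and 0, and 0 and 0 in the fits that lacked WT replicate 1, 2 and 3 in turn. Over all genes, the 3 fits without a STAT6-/- library called 1035, 2750 and 1905 higher and 751, 2440 and 1530 lower, in the same order. They tested 15203, 15324 and 15223 genes. The 3 fits without a WT library called 656, 21 and 12 higher and 751, 10 and 6 lower, of 15432, 15497 and 15395 tested. Of the genes named from these lists as called, Stat2 alone kept its call without WT replicate 2, and 0 did without WT replicate 3. Among 10 other sensors and related NLR genes, 2 rose and 0 fell (edgeR; 3 had an unadjusted p below 0.05, and DESeq2 called 2 higher and 0 lower), with a median log2 fold change of 0.30. Nlrc5, the transactivator of MHC class I genes, had 88.1, 30.1 and 99.2 CPM in STAT6-/- colons, against 2.37, 4.53 and 1.99 CPM in WT colons. Its lowest STAT6-/- library was far above its highest WT library, and it rose 24.5-fold (log2 4.61, SE 0.56; edgeR adjusted p = 0.00965). Nlrx1, a mitochondrial NLR protein, rose 1.99-fold to 63.3 ± 11.5 CPM in STAT6-/- colons, against 31.8 ± 4.09 CPM in WT colons (adjusted p = 0.0157). Naip2, the most abundant of the list per length, had 145 ± 42.9 CPM in STAT6-/- colons and 148 ± 17.5 CPM in WT colons and did not pass (adjusted p = 0.929). Nlrp12 was too scarce to be tested.

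Of 8 tested effectors and substrates, 2 rose and 0 fell (edgeR; 3 had an unadjusted p below 0.05, and DESeq2 called 4 higher and 0 lower), with a median log2 fold change of 0.62. Il18, the most abundant cytokine substrate per length, had 133, 189 and 46.7 CPM in STAT6-/- colons, against 245, 255 and 219 CPM in WT colons. All STAT6-/- libraries lay below the WT libraries, yet their spread was wide and the log2 fold change of -0.97 (SE 0.45) did not pass (edgeR adjusted p = 0.154). Without STAT6-/- replicate 2 it was -1.38 and passed (adjusted p = 0.0493), and without STAT6-/- replicate 3 it was -0.53 (adjusted p = 0.101).

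The other 2 substrates given here were chosen after their values were seen. Il1b had 50.03, 2.61 and 25.1 CPM in STAT6-/- colons, against 9.88, 3.54 and 2.55 CPM in WT colons. STAT6-/- replicate 2 was within the WT range, and the log2 fold change of 2.28 did not pass (edgeR adjusted p = 0.129). The libraries were ordered as in the pan-leukocyte sum within STAT6-/- colons, and the part of leukocytes was not tested. Il18 exceeded Il1b 2.65, 72.3 and 1.86 times in CPM in STAT6-/- replicates 1 to 3, against 24.8, 72.2 and 85.8 times in WT replicates 1 to 3, a within-library ratio that still depends on the lengths of the transcripts. Gsdmd, the pore-forming substrate, had 269, 326 and 473 CPM in STAT6-/- colons, against 276, 283 and 234 CPM in WT colons, and the groups overlapped (log2 0.43; edgeR adjusted p = 0.219).

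Among 14 activators and cofactors, 2 rose and 2 fell (edgeR; 9 had an unadjusted p below 0.05, and DESeq2 called 7 higher and 2 lower), with a median log2 fold change of 0.82. Without STAT6-/- replicate 2, edgeR called 7 higher and 2 lower. Txnip, a thioredoxin-binding protein reported to bind NLRP3, had 340, 575 and 883 CPM in STAT6-/- colons, against 1997, 1961 and 1960.02 CPM in WT colons. Its WT libraries were nearly equal and its STAT6-/- libraries all far below them, and it fell by 1.72 on the log2 scale (SE 0.35; edgeR adjusted p = 0.0201). Brcc3, the deubiquitinase that acts on NLRP3, fell by 1.05 on the log2 scale, to 23.7 ± 3.24 CPM in STAT6-/- colons, against 49.0 ± 6.08 CPM in WT colons (edgeR adjusted p = 0.0128). Ticam1, which encodes the Toll-like receptor adaptor TRIF, rose 1.74-fold, to 49.6 ± 3.69 CPM in STAT6-/- colons, against 28.4 ± 4.64 CPM in WT colons (edgeR adjusted p = 0.0198). Gbp7, an interferon-induced GTPase, rose 2.60-fold, to 142 ± 50.6 CPM in STAT6-/- colons, against 54.5 ± 16.1 CPM in WT colons (edgeR adjusted p = 0.0300). The Gbp7 call was also lost without STAT6-/- replicate 1 (adjusted p = 0.0653), STAT6-/- replicate 3 (0.0525) or WT replicate 1 (0.0866), and the Txnip call without WT replicate 1 (0.0561).

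Of 10 inhibitors of inflammasomes and their cytokines, 3 rose and 0 fell (edgeR; 5 had an unadjusted p below 0.05, and DESeq2 called 3 higher and 1 lower), with a median log2 fold change of 0.19. Il18bp, the secreted decoy that binds interleukin-18, had 115, 53.6 and 101 CPM in STAT6-/- colons, against 12.5, 16.8 and 10.8 CPM in WT colons. Every STAT6-/- library held at least 3 times the highest WT level, and it rose 6.72-fold (log2 2.75, SE 0.33; edgeR adjusted p = 0.00965). Dpp9, a peptidase that holds NLRP1 inactive, rose 2.00-fold, to 57.7 ± 16.5 CPM in STAT6-/- colons, against 28.8 ± 3.08 CPM in WT colons (edgeR adjusted p = 0.0248). Card6 rose 1.87-fold, to 18.2 ± 2.39 CPM in STAT6-/- colons, against 9.69 ± 1.93 CPM in WT colons (edgeR adjusted p = 0.0318). Without WT replicate 1 the adjusted p was 0.0768 for Dpp9 and 0.0866 for Card6, and without STAT6-/- replicate 1 it was 0.0654 for Card6. Serpinb1a, the most abundant of the list and an inhibitor of serine proteases, had 730.5 ± 169.9 CPM in STAT6-/- colons and 1109.9 ± 115 CPM in WT colons, with no overlap and an edgeR adjusted p of 0.0952. DESeq2 called it lower, as did edgeR without STAT6-/- replicate 3.

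Of 7 receptors and adaptors for interleukin-1 and interleukin-18, 1 rose and 0 fell (edgeR; 5 had an unadjusted p below 0.05, and DESeq2 called 4 higher and 1 lower), with a median log2 fold change of 0.56. It was Myd88, the adaptor shared with Toll-like receptors, which rose 1.87-fold to 68.9 ± 18.2 CPM in STAT6-/- colons, against 36.7 ± 2.86 CPM in WT colons (edgeR adjusted p = 0.0275). This call too was lost without STAT6-/- replicate 1 (adjusted p = 0.0599) or WT replicate 1 (0.0781), which left 0 of the list called.

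The 7 tested AIM2-like genes, relatives of Aim2 in the same family of DNA-binding proteins, all had positive log2 fold changes with a median of 1.91, and edgeR called 0 of them in either direction. In all 7 the groups overlapped, 6 had an unadjusted p below 0.05, and DESeq2 called 6 higher and 0 lower. Ifi204, the most abundant per length, had 92.3, 3.81 and 44.4 CPM in STAT6-/- colons, against 2.78, 8.75 and 9.53 CPM in WT colons (log2 2.74; edgeR adjusted p = 0.0904). In all 8 AIM2-like genes with counts, STAT6-/- replicate 2 was the lowest of its genotype, as in the pan-leukocyte sum, and without it edgeR called all 7 tested genes higher. The part of leukocytes was not tested. Aim2 itself had no such pattern, its lowest STAT6-/- library being replicate 1.

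Of 6 transcription factors that act in interferon responses, 5 rose and 0 fell (edgeR; all 6 had an unadjusted p below 0.05, and DESeq2 called 6 higher and 0 lower), with a median log2 fold change of 2.08. Stat2 rose 6.60-fold, to 253 ± 58.4 CPM in STAT6-/- colons, against 38.4 ± 8.46 CPM in WT colons (edgeR adjusted p = 0.00732). Irf8 rose 5.67-fold (edgeR adjusted p = 0.0129), Irf7 3.38-fold (adjusted p = 0.0134) and Irf9 2.27-fold (adjusted p = 0.0153), all with no overlap between the genotypes. Irf7, the most abundant per length, had 717, 494 and 802 CPM in STAT6-/- colons, against 149, 261 and 185 CPM in WT colons. STAT6-/- replicate 2 was the lowest of its genotype for all 6, though above every WT library. For Irf9 it was nearly level with STAT6-/- replicate 1 (98.1, 97.6 and 112 CPM in STAT6-/- replicates 1 to 3). The summed leukocyte markers were also lowest in STAT6-/- replicate 2 among STAT6-/- colons, and their part was not tested.

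**Figure D5:**
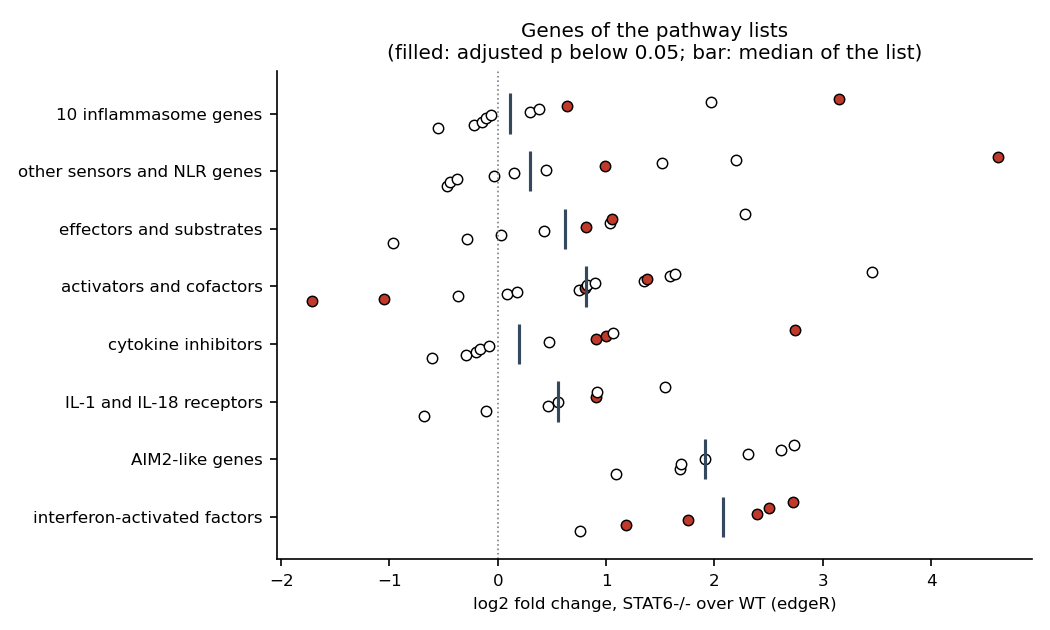
Log2 fold changes of STAT6-/- over WT colons from edgeR for the 10 inflammasome genes and for the tested genes of the 7 lists, 1 point per gene. Filled points have an adjusted p below 0.05; 15 of the 62 tested list genes are filled at positive values and 2 at negative values, and the list of interferon-activated transcription factors has the highest median at 2.08.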

How the data were processed

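Total RNA of 6 colon libraries, 3 per genotype, was measured by RNA sequencing. Per the file headers, each deposited table lists expected counts and FPKM per RefSeq transcript, and the submitters' processing notes name Bowtie2 2.2.5, RSEM 1.2.12 and mm10. The expected counts deposited by the authors are estimated reads without scaling between libraries, and the FPKM deposited by the authors are scaled to transcript length and mapped fragments. The lowest listed FPKM was 0.01, and a transcript not listed in a library was taken as 0.

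Counts were summed per gene and rounded. Of 28238 transcripts, 27986 were named from RefSeq GRCm38.p6 and 149 from GENCODE M21, and 103 (0.167% of counts) stayed unnamed entries. Libraries held 17122315 to 19555450 counts, at which 3 counts, the upper limit of a count of 0, are 0.153 to 0.175 CPM (counting error only). The genotype test was that of edgeR 4.0.16 under R 4.3.3 ( quasi-likelihood F test, TMM factors, filterByExpr, robust) over 15066 genes, and a gene passed, and "rose" or "fell", at a Benjamini-Hochberg adjusted p below 0.05. The common dispersion was 0.102. The test was tried on simulated data.

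The 10 genes and the lists were chosen with earlier results of these data known. Named were all 10 genes, Stat6, and from each list up to 6 passing genes with the smallest p and the gene with the highest FPKM. A few genes chosen this way are not reported here, though the lists' counts include them. Alternatives were RLE factors or library size alone, no filter or 1 CPM in 3 libraries, DESeq2 1.42.0, limma-voom (limma 3.58.1), edgeR without robust estimation, limma on log2(FPKM + 1) and log2(FPKM + 0.1), blocking on replicate number, the Naip sum, and each library left out.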

Additional observations from a re-analysis of the deposited data

How the results depend on the processing

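The count of inflammasome genes called higher, 2 in the edgeR result, was 1 with a filter of 1 CPM in 3 libraries (which left Mefv and Nlrp3 untested), with limma-voom, with limma on log2 FPKM with 1 or 0.1 added, and with the replicate block. It ranged from 0 to 3 when 1 library was left out, and the count called lower, 0, was 1 with DESeq2. Casp4 was called in 12 of 16 alternatives and Mefv in 6 of the 15 that tested it. Over all genes, 1718 were called higher and 1731 lower. DESeq2 called 2713 higher, and with 1 library left out the counts ranged from 12 to 2750 higher and from 6 to 2440 lower. Of the pathway genes, 15 were called higher and 2 lower, against 32 and 4 with DESeq2 and ranges of 0 to 38 and 0 to 5 with 1 library left out. The log2 fold change of Stat6 ranged from -1.06 to -0.85 with 1 library left out. Signs turned for genes that did not pass in either fit: with 1 library left out, Nlrp6 ranged from -0.525 to 0.174, Nlrc4 from -0.052 to 0.531, Naip1 from -0.093 to 0.050, Aim2 from -0.191 to 0.008 and Naip2 from -0.213 to 0.203, and Naip2 was 0.005 with library size alone. The cause of these shifts was not tested, beyond the fewer samples or genes that a setting leaves. Same-numbered libraries correlated at 0.023, 0.044 and 0.134 in their deviations from the group means, and differently numbered ones at -0.109 to 0.054. So few values do not decide whether the numbers mark pairs. The numbers were not taken as pairs in the main fit, and the replicate block is given as an alternative. With the replicate block 1219 genes were called higher and 1445 lower, and the edgeR adjusted p was 0.116 for Mefv, 0.0685 for Gbp7 and 0.054 for Myd88. With 3 libraries a group and counts of 4 to 152 for Mefv and 8 to 78 for Nlrp3, depth limits what can be said of both.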
